A study of Mus musculus with 43 samples.

Results

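The fragments of tRNA-Gln, the transfer RNA that carries glutamine, were followed in small RNA libraries of the mouse epididymis, its luminal fluid and cauda sperm. Members were taken by name: every entry of tRNA-Gln-CTG and tRNA-Gln-TTG, named by anticodon, that the deposited count tables class as a 5′ fragment (tRF_5′), a 3′ fragment (tRF_3′) or a fragment that is neither (tRF_other). This gave 30 entries in each of 3 tables, 10 isodecoders (tRNAs that share an anticodon and differ elsewhere) by 3 fragment types, out of 4890 listed RNAs in the tissue table, 3178 in the fluid table and 4323 in the sperm table. All tRNA fragments together made up 651, 645 and 654 of these entries. After a filter on low counts, 29, 28 and 27 tRNA-Gln entries were tested. The entries of 1 anticodon and type were also added up, which gave 6 sums per table.

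All mice were FVB males of 8 to 12 weeks, either wild type (WT) or homozygous for a CRISPR/Cas9 deletion that takes out the chromosome 14 cluster of Rnase9, Rnase10, Rnase11 together with Rnase12 (KO). WT and KO tissue was represented by 3 and 3 caput libraries, 3 and 2 corpus libraries and 3 and 3 cauda libraries. Fluid of each segment, cleared of sperm, vesicles and cell fractions, was represented by 3 WT and 3 KO libraries, and cauda sperm by 4 and 4. RNA of 3 mice was pooled for each fluid and sperm library, and all RNA was treated with T4 polynucleotide kinase, which opens the 2′,3′-cyclic phosphate ends that ribonucleases of this family leave. Libraries were made by ARM-seq or OTTR-seq, 2 protocols that copy modified and cut RNAs better than plain ligation. The sources used here name OTTR-seq for sperm and give no protocol for each tissue or fluid library, so that differences between sample types and between protocols cannot be told apart. The deletion removes all 4 genes in every cell from conception, so effects of single genes or of adult loss cannot be separated here.

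Glutaminyl-tRNA delivers glutamine to the ribosome at CAG and CAA codons, read by the CTG and TTG anticodons respectively. Endonucleases of the RNase A family, with angiogenin (Rnase5) as the best studied, cut tRNAs in single-stranded loops, mainly the anticodon loop, and leave a 5′ and a 3′ part. A read is classed as tRF_5′ or tRF_3′ when its alignment lies at or near that end of the mature tRNA. Fragment reads at neither end are classed as tRF_other, also called internal fragments below. These classes describe alignments and do not give the number or kind of cuts. Rnase9 to Rnase12 are epididymis-specific relatives of angiogenin that lack the conserved catalytic residues of the family, and tRFs are abundant in sperm that have passed through the epididymis.

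Total counts ranged from 30142156 to 249732714 per tissue library, 1948718 to 12320922 per fluid library and 1134840 to 62128314 per sperm library. tRNA-Gln fragments took 44653 to 1752530, 64572 to 534440 and 2542 to 172152 of them. Transcripts of the deleted genes were not counted features, so genotype could not be checked in these libraries. One label field named the cauda for WT caput tissue replicate 3 and for all 6 caput fluid libraries, against their titles and descriptions. Counts of Mir204 and Mir211, which mark epididymal epithelium, were 0.196 to 1.39 CPM (counts scaled to the library total) in WT caput tissue and at most 0.0504 in WT cauda tissue. In fluid, where Mir204 is the listed one of the pair, it was 28.7 to 44.6 CPM in WT caput libraries, against 2.03 to 6.47 in WT cauda fluid. Groups follow the titles. Tests and shares that rest on WT caput tissue replicate 3 are given with and without it. Nothing in the labels ties the tissue libraries to separate animals, so p-values measure the spread between libraries.

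The reference annotation of the same assembly (RefSeq, GRCm38.p6) lists 16 nuclear tRNA-Gln genes. Of the 10 genes with anticodon CTG, 4 lie on chromosome 3, 4 on chromosome 13 and 1 each on chromosomes 9 and 11. Of the 6 with anticodon TTG, 3 lie on chromosome 13, 2 on chromosome 11 and 1 on chromosome X. The isodecoder names of the tables could not be matched to single genes. Counts were assigned to mature tRNAs, which carry no introns or UTRs.

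The isodecoder entries were not independent measurements, since reads that matched several tRNAs equally well were counted on each. Gln-CTG-2 and Gln-CTG-3 tRF_5′ held equal counts in every library of each table. In tissue, 21 of the 45 pairs of tRF_3′ entries were within 10% of each other in every library, and 12 of these pairs joined the CTG and TTG anticodons. Gln-TTG-1 tRF_3′ counts were 99.8% of Gln-CTG-3 tRF_3′ counts in the median tissue library (n = 17), 109% in the median fluid library (n = 18) and 102% in the median sperm library (n = 8). In fluid no pair of tRF_3′ entries joined the anticodons within 10% in every library, and in sperm 6 pairs did. Of the tRF_other entries, 12 pairs in sperm were within 10% in every library, and 8 of these joined the anticodons. No tRF_other pair did so in tissue or fluid.

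Entries that shared reads in 1 sample type separated in another. Gln-CTG-1 tRF_3′ counts were 98.8% of Gln-CTG-3 tRF_3′ counts in the median tissue library (range 93.1 to 99.6%). The same entry held 2.91% in the median fluid library (0.961 to 7.10%) and 81.4% in the median sperm library (45.3 to 90.5%). Gln-TTG-5 tRF_3′ followed the same order against Gln-TTG-1, with medians of 97.8%, 1.92% and 78.2%. At the 5′ end tissue stood lowest, where Gln-CTG-1 tRF_5′ was 51.5% of Gln-CTG-2 in the median tissue library and 99.97% in the median fluid library, and was equal to it in the median sperm library. Fluid and sperm did not overlap in the Gln-CTG-1 share of tRF_3′. For Gln-TTG-1 relative to Gln-CTG-2 tRF_other, the medians were 20.5% in tissue, 75.6% in fluid and 93.0% in sperm.

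**Figure D1:**
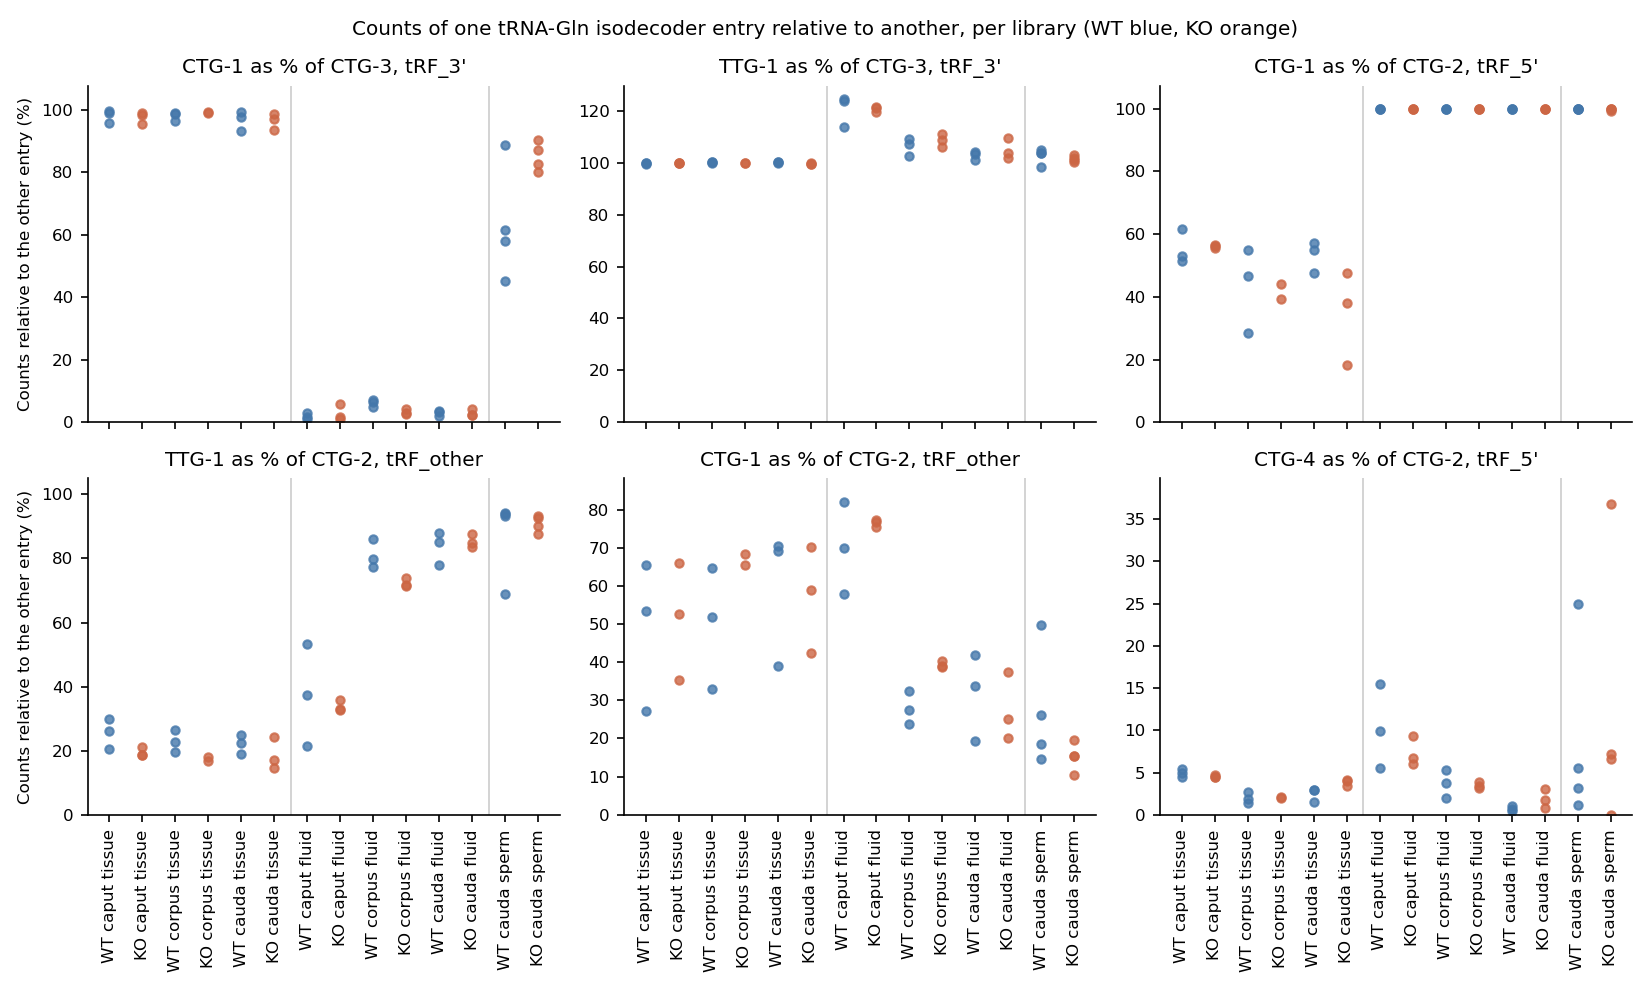
Counts of 1 tRNA-Gln isodecoder entry as a percentage of another, on linear axes, with 1 point per library and groups along the x axis (WT blue, KO orange; vertical lines part tissue, fluid and sperm). Gln-CTG-1 tRF_3′ lies at 93.1 to 99.6% of Gln-CTG-3 in tissue and at 0.961 to 7.10% in fluid, and Gln-TTG-1 tRF_other climbs from a median of 20.5% of Gln-CTG-2 in tissue to 93.0% in sperm.

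Several isodecoders tied for the highest level of a type, since they shared reads. Gln-CTG-2 had the highest mean level of CTG tRF_3′ entries in all 3 tables. It tied with Gln-CTG-3 for CTG tRF_5′, and Gln-CTG-3 and Gln-CTG-2 tRF_other were nearly equal, at 315.593 and 315.590 CPM in tissue. From here on levels are TMM-scaled CPM, a scale set within each table (marker miRNAs stay relative to the library total), so that levels of different tables stand side by side without a test. Mean Gln-CTG-2 tRF_3′ was 13825 CPM in the fluid table, 864 in that of tissue and 193 in that of sperm. For TTG, Gln-TTG-1 and Gln-TTG-3 were the highest tRF_3′ and tRF_other entries in every table and differed little from each other, with tRF_other means of 65.7 CPM each in tissue, 1130 CPM each in fluid and 159 CPM each in sperm. At the low end, Gln-TTG-4 tRF_other averaged 0.887 CPM in fluid and Gln-TTG-4 tRF_5′ 0.0812 CPM in tissue.

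The 3 sample types held different mixtures of fragment types. Tissue held few tRF_5′ of either anticodon, at 22.2 to 166 CPM for CTG and 2.46 to 20.9 CPM for TTG. tRF_3′ prevailed in the counts of TTG tissue entries, with group means of 78.5 to 87.5% of all TTG fragment counts. These tRF_3′ counts cannot be assigned to TTG alone, since Gln-TTG-1 held 99.4 to 100.3% of Gln-CTG-3 counts in tissue libraries. Reads matched to several TTG entries also count more than once in this share. In the fluid table CTG tRF_5′ stood at 1417 to 10084 CPM and CTG tRF_3′ at 8782 to 36023 CPM. In WT sperm, tRF_other made up 64.2% ± 11.8 of CTG and 66.8% ± 6.87 of TTG fragment counts (SD, n = 4). These 2 shares are not independent, since 8 pairs of sperm tRF_other entries joined the anticodons within 10% in every library.

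**Figure D2:**
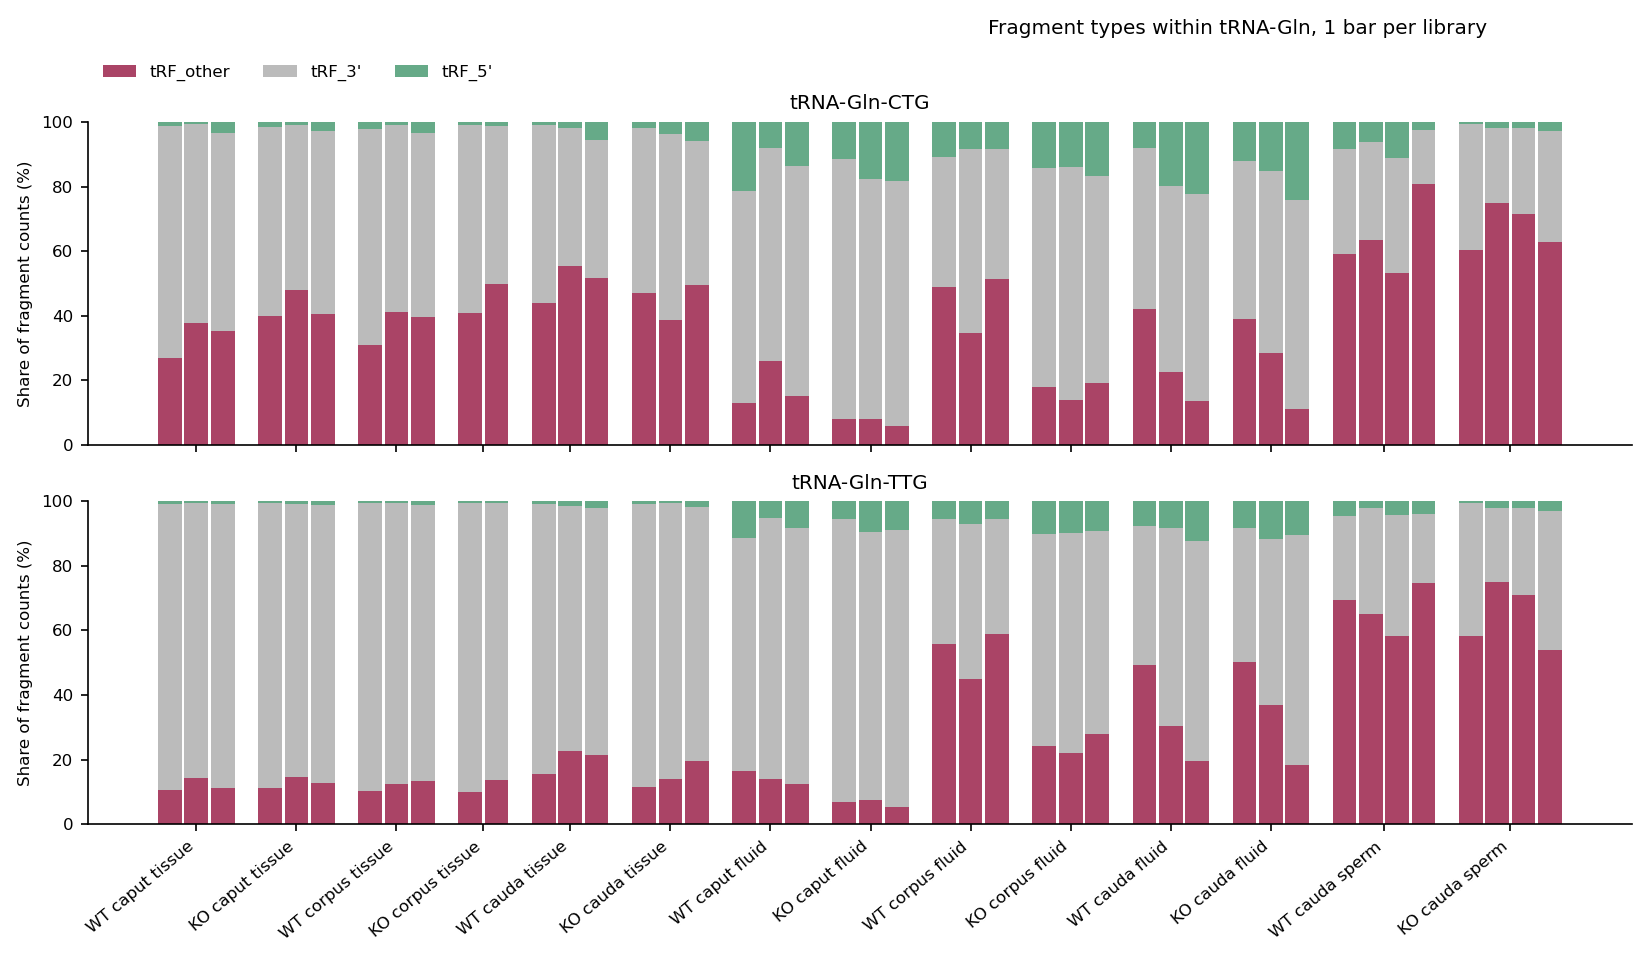
Share of tRF_other, tRF_3′ and tRF_5′ in the fragment counts of each tRNA-Gln anticodon, as stacked bars that sum to 100%, with 1 bar per library and libraries grouped along the x axis. The tRF_other part is tall in sperm (WT mean 64.2% for CTG) and in WT corpus fluid (45.0%), and short in KO caput fluid (7.32%).

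With entries added up, tRNA-Gln made up more of the tRNA fragment counts in tissue than in fluid or sperm. A read matched to several entries counts on each, and entries overlapped to different degrees by sample type. Of 45 pairs of tRF_3′ entries, 21 were within 10% in every tissue library, against 2 in fluid and 9 in sperm. The part of this repeated counting in the higher tissue share was not tested. Group means of the tRNA-Gln share of all tRNA fragment counts ranged from 13.8 to 21.8% in tissue and from 3.60 to 6.04% in fluid. In sperm they were 4.67% ± 0.76 in WT and 3.72% ± 0.32 in KO (SD, n = 4 each), which overlapped (exact permutation test, two-sided, p = 0.0571, where 0.0286 is the smallest p that 4 against 4 allows). Over the 130 exact permutation tests of shares the lowest adjusted p was 0.295, and with 3 libraries a group no such test could go below p = 0.1, so shares are given here by value and by whether groups overlapped. In 43 of the 130 tests the groups did not overlap.

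Levels within a sample type mostly formed a continuum. When the 6 groups were ordered by mean CPM, neighbouring groups overlapped in all but 2 of 30 pairs in tissue and 3 of 30 in fluid. The order of CTG tRF_3′ in tissue ran from WT caput (2452 ± 681) through KO caput (2153 ± 233), KO corpus (1941 ± 530, n = 2), WT corpus (1687 ± 461) and WT cauda (1294 ± 331) to KO cauda (759 ± 380; CPM, SD, n = 3 otherwise). In fluid the order of CTG tRF_3′ ran from KO caput (29423 ± 10305) and WT caput (25829 ± 2117) through WT cauda (17481 ± 8952) and KO cauda (17084 ± 9294) to WT corpus (12994 ± 5680) and KO corpus (12423 ± 1401). No neighbours in either order were separate. The 5 separate pairs all concerned tRF_other.

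**Figure D3:**
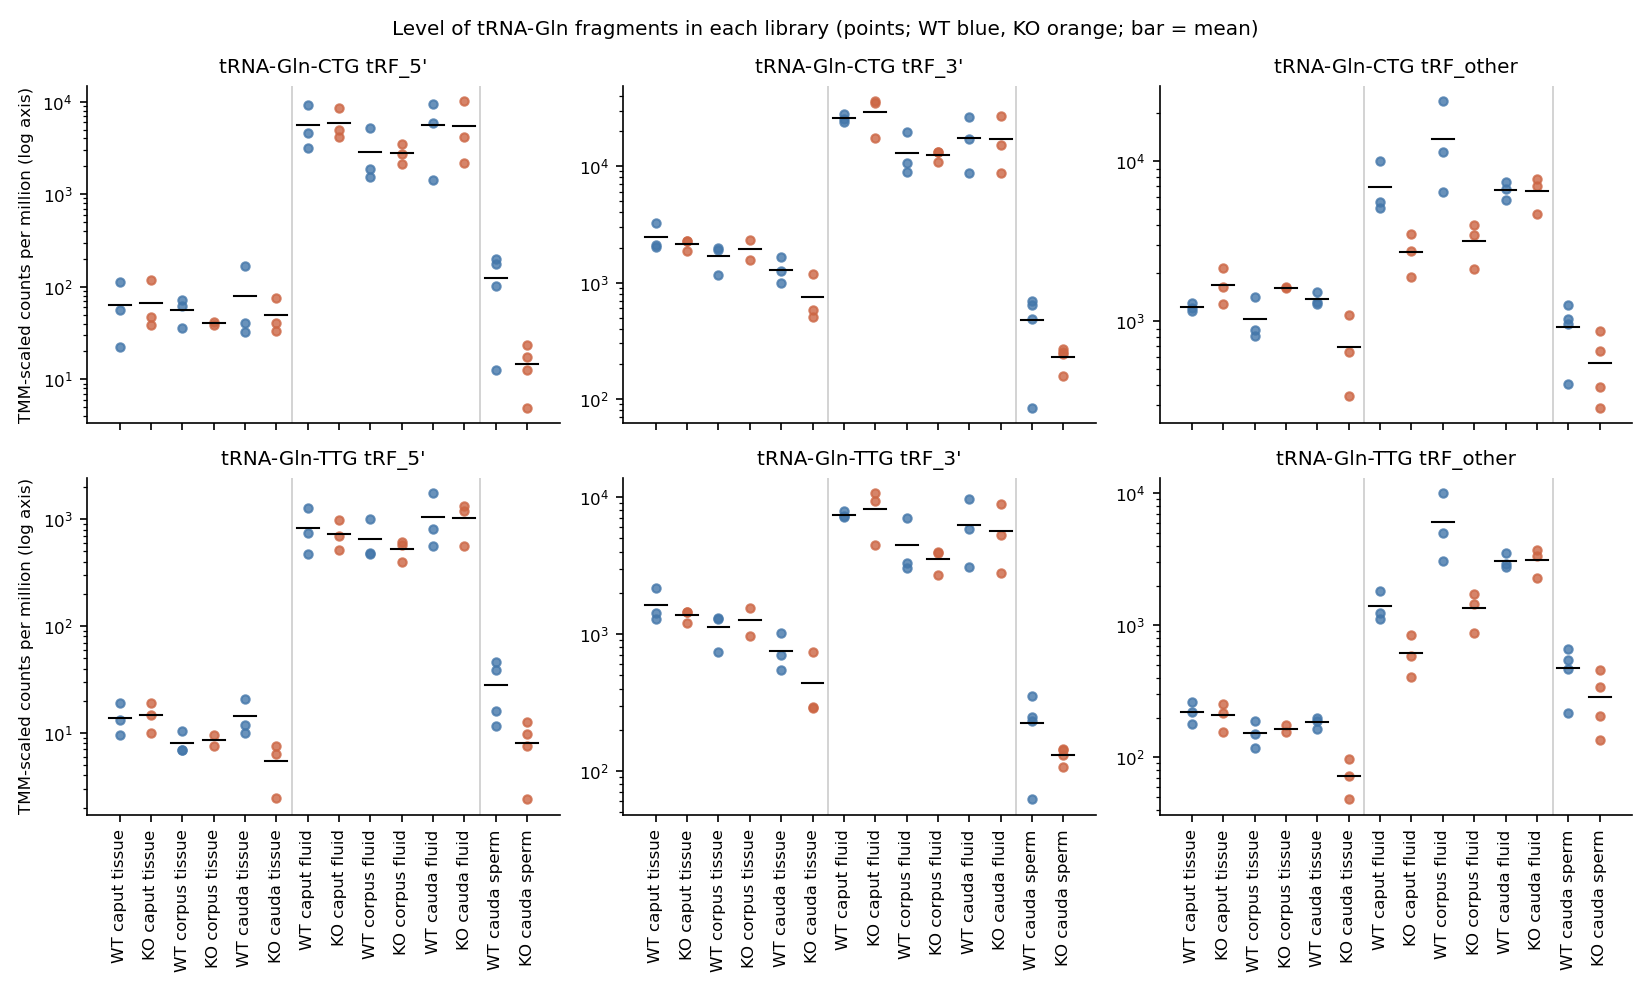
TMM-scaled CPM of the 6 tRNA-Gln sums on log axes, with 1 point per library, the group mean as a bar and the 14 groups along the x axis (WT blue, KO orange; vertical lines part tables that were scaled separately). tRF_other separates WT from KO in corpus fluid, where the lowest WT library of CTG stands at 6429 and the highest KO library at 4001.

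In corpus fluid, internal fragments of both anticodons fell in KO mice. CTG tRF_other levels were 23717, 6429 and 11358 CPM in the WT libraries and 3452, 2115 and 4001 CPM in the KO libraries. TTG tRF_other levels were 10081, 3062 and 4989 CPM in WT and 1451, 878 and 1726 CPM in KO. All KO libraries lay below all WT libraries for both sums, and WT replicate 1 was the highest throughout. CTG tRF_other fell by 2.12 on the log2 scale (SE 0.43, adjusted p = 0.00441) and TTG tRF_other by 2.16 (SE 0.41, adjusted p = 0.00441; edgeR quasi-likelihood test with Benjamini-Hochberg adjustment over 1606 sums and other RNAs). Both calls held under every alternative that was run. Reads that match both anticodons may count in both sums, so the 2 calls may not be independent results. Gln-TTG-1 tRF_other counts were 77.2 to 86.1% of Gln-CTG-2 counts in WT and 71.4 to 74.0% in KO corpus fluid. The part of shared reads was not tested. The fragments that keep a tRNA end were lower by 0.06 to 0.34 in log2 fold change, with SEs above those differences, and none passed the test.

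By isodecoder, 9 of 28 tested entries fell and none rose in KO corpus fluid, where 19.7% of all RNAs tested were called, 6.23% lower and 13.5% higher. All 9 were tRF_other, and log2 fold changes ran from -1.17 for Gln-TTG-5 to -2.03 for Gln-CTG-4. The tenth, Gln-TTG-4 tRF_other, was 1.95 lower on the log2 scale with an SE of 0.98 and did not pass (adjusted p = 0.166). Gln-TTG-3 tRF_other, the called entry with the smallest p, stood at 3693, 1415 and 2143 CPM in WT and 656, 426 and 800 CPM in KO (log2 fold change -1.95, SE 0.38, adjusted p = 0.00235). In 10 entries all KO libraries lay below all WT libraries, and in Gln-CTG-5 tRF_3′ they lay above, beside 15.7% and 20.4% of all RNAs. The 10 included Gln-TTG-2 and Gln-TTG-5 tRF_3′. They did not include the called Gln-CTG-1 tRF_other, in which the groups overlapped. With the 2 groups fitted alone 7 entries were lower and Gln-CTG-5 tRF_3′ was called higher (log2 fold change 1.45, adjusted p = 0.0133; edgeR). The median log2 fold change was -1.85 over the tRF_other entries, 0.24 over tRF_5′ and -0.06 over tRF_3′, beside 0.10 over all RNAs tested. Single tRF_3′ entries ran from -1.38 to 1.31. Scaling moved the split over all RNAs from 126 lower and 273 higher to 466 and 144 when the factors came from RNAs other than tRNA and rRNA features, and 13 tRNA-Gln entries were then lower.

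The composition of tRNA-Gln reads in corpus fluid moved with the level. tRF_other made up 49.0, 34.6 and 51.3% of CTG fragment counts in WT and 17.9, 14.1 and 19.2% in KO. For TTG the shares were 55.7, 44.8 and 58.8% in WT and 24.1, 22 and 27.9% in KO. Neither pair of groups overlapped (exact permutation test, two-sided, p = 0.1, the smallest possible). The mean tRF_3′ share was 45.8% in WT and 68.0% in KO for CTG, and 40.9% and 65.6% for TTG. Among tRNA fragments other than tRNA-Gln, tRF_other made up 6.05% ± 1.32 in WT and 2.94% ± 0.52 in KO (SD, n = 3). The TTG part of tRNA-Gln tRF_other counts was close in both genotypes, at 30.9% ± 1.25 and 29.7% ± 0.41, and overlapped.

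Fragments of other tRNAs were also lower in KO corpus fluid. Of 143 sums of other anticodons tested, 36 fell and none rose, where 16.8% of all sums and RNAs tested were called and 4.92% called lower. Of the 49 tRF_other sums among them 24 fell, with a median log2 fold change of -1.25, against medians of -0.73 for tRF_5′ and -0.64 for tRF_3′. In a list of 10 anticodons whose fragments are often described in sperm (Gly-GCC, Gly-CCC, Glu-CTC, Glu-TTC, Val-CAC, Val-AAC, Lys-CTT, Lys-TTT, His-GTG and Asp-GTC), 2 of 30 sums fell. Both tRNA-Gln tRF_other sums thus lay below the median of their type.

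The KO corpus fluid libraries differed from WT in other measured ways. They were the shallower ones, at 1948718 to 3373869 total counts against 3989262 to 10172577. Of 7 lists of cell type marker miRNAs, 4 did not overlap and were higher in KO. All 5 epithelial markers of the Mir200 family were detected and summed to 28.3 to 76.5 CPM in WT and 89.3 to 166 CPM in KO. Mir204 was 5.33 to 9.02 against 28.3 to 56.5 CPM, the endothelial Mir126a 9.33 to 23.4 against 25.9 to 91.3 CPM, and the germ cell markers, 5 of 7 detected in WT and 4 in KO, 4.52 to 12.3 against 13.3 to 20.0 CPM. The smooth muscle, leukocyte and erythrocyte lists overlapped. The part of depth and of these markers in the tRNA-Gln result was not tested.

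In caput fluid the tRF_other sums were lower in KO but did not pass the test. CTG tRF_other was 5563, 10009 and 5082 CPM in WT and 3510, 1896 and 2741 CPM in KO. TTG tRF_other was 1828, 1243 and 1123 CPM in WT and 839, 409 and 589 CPM in KO. Groups did not overlap for either sum. The log2 fold changes were -1.34 (SE 0.42) for CTG and -1.19 (SE 0.40) for TTG, each with adjusted p = 0.299 by edgeR. None of 28 entries was called, by edgeR or by DESeq2, where 0.0% of all RNAs were called. At an unadjusted p under 0.05, 7 entries were lower, all tRF_other, beside 10.6% of all RNAs in either direction and 5.14% lower. In 9 entries all KO libraries lay below all WT libraries and in none above, beside 12.7% and 13.3% of all RNAs.

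Shares moved in caput fluid as well. tRF_other made up 13.0, 25.95 and 15.1% of CTG fragment counts in WT and 8.14, 8.03 and 5.79% in KO, and on average 14.3% ± 2.05 and 6.61% ± 1.10 of TTG counts (SD, n = 3). Groups did not overlap for either anticodon (exact permutation test, two-sided, p = 0.1, the smallest possible). Among other tRNA fragments the tRF_other share was 1.98% ± 0.30 in WT and 2.23% ± 2.12 in KO. No sum of 143 for other anticodons was called, and the median log2 fold change of their tRF_other sums was -0.37. Of the 7 marker lists, 5 were higher in KO without overlap, among them the Mir200 family (all 5 markers detected, 97.0 to 168 against 236 to 289 CPM) and Mir204 (28.7 to 44.6 against 70.5 to 93.3 CPM). Their part in the lower tRF_other values was not tested.

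In cauda fluid no difference by genotype was detected. CTG tRF_other was 7407, 6738 and 5753 CPM in WT and 7049, 7763 and 4650 CPM in KO, and TTG tRF_other 3534, 2936 and 2785 against 3373, 3744 and 2285 CPM. The groups overlapped for both. All 6 sums had log2 fold changes between -0.13 and 0.02, each smaller than its SE. No entry was called by edgeR or DESeq2, where 0.0% of all RNAs were called by edgeR, and none had an unadjusted p under 0.05 beside 9.29% of all RNAs. The tRF_other share of CTG counts averaged 26.2% in both genotypes (SD 14.5 and 14.1, n = 3). Replicates spread widely in both genotypes, from 13.8 to 42.1% in WT and from 11.1 to 39.0% in KO.

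The genotype effect on internal fragments differed between corpus and cauda fluid. Tested as an interaction, the KO effect in corpus minus that in cauda was -2.09 (SE 0.59, adjusted p = 0.0408) for CTG tRF_other and -2.18 (SE 0.57, adjusted p = 0.0348) for TTG tRF_other. Among entries, 3 of 28 were called, where 7.37% of all RNAs were called and 2.87% lower: Gln-CTG-4 (-1.93), Gln-TTG-1 (-1.80) and Gln-TTG-3 (-1.80), all tRF_other. Without WT corpus fluid replicate 1 the CTG and TTG interactions were -1.30 and -1.46 and neither passed. The CTG call was lost in 11 of 12 fits that left out 1 library, all but that without KO cauda replicate 3. The TTG call was lost in 7 of 12, those without KO corpus replicate 1 or 2, KO cauda replicate 1 or 2, WT cauda replicate 2 or 3, or WT corpus replicate 1. The effects in corpus and caput fluid were not shown to differ, since no entry was called there, where 1.83% of all RNAs were. The cauda minus caput contrast was 1.31 for CTG (adjusted p = 0.437) and 1.21 for TTG (adjusted p = 0.451; edgeR).

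**Figure D4:**
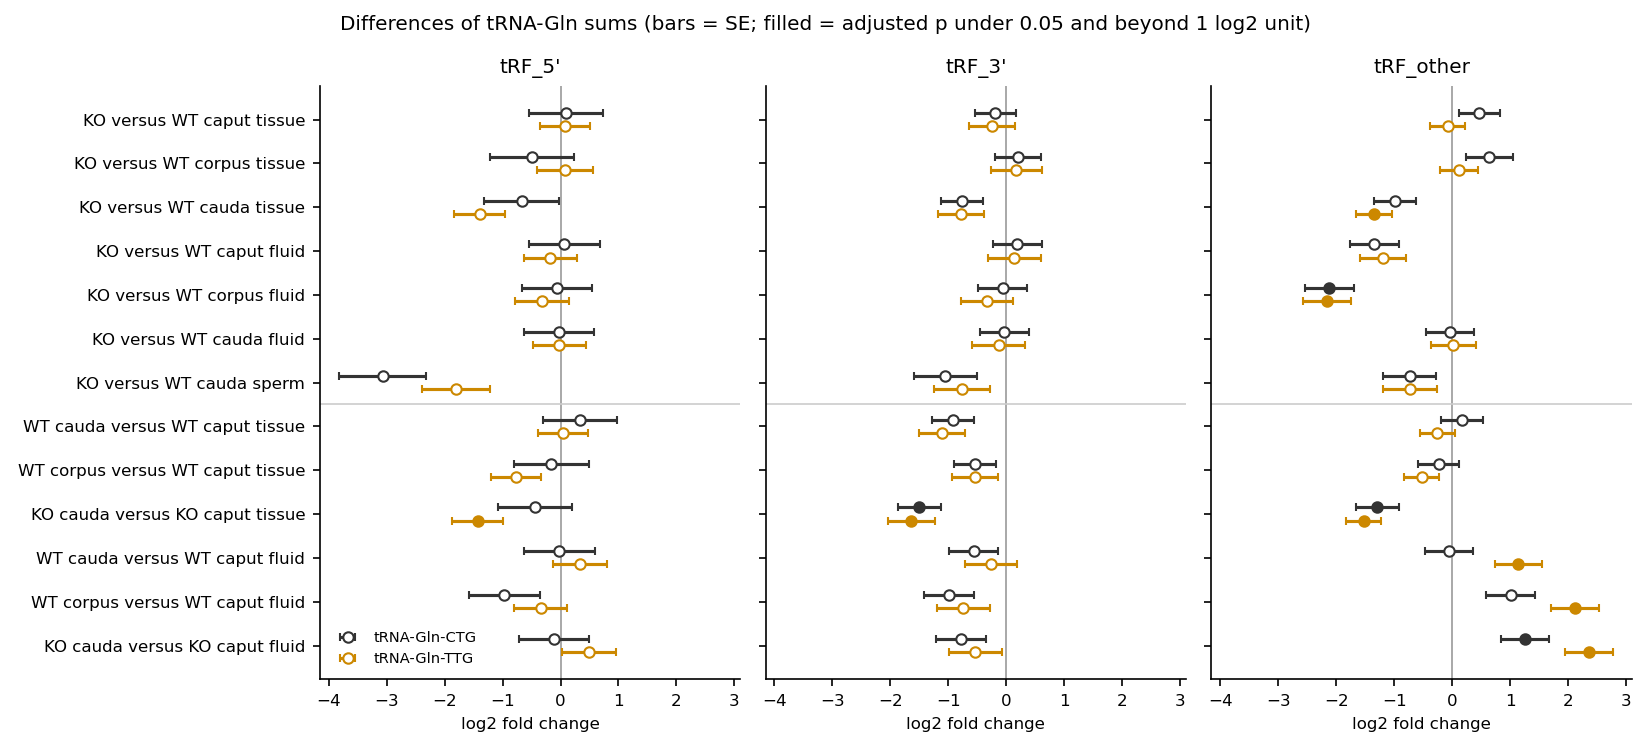
Log2 fold changes of the tRNA-Gln sums on linear axes, with SE bars, for 7 comparisons of KO with WT above the grey line and 6 comparisons of segments below it; filled points passed an adjusted p of 0.05 and a change of 1. In tRF_other the points for corpus fluid stand at -2.12 and -2.16 while those for cauda fluid stand near 0.

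In tissue, a difference by genotype was seen in the cauda. TTG tRF_other was 190, 164 and 199 CPM in WT cauda and 97.0, 48.1 and 72.3 CPM in KO cauda. It was the tRNA-Gln sum that fell (log2 fold change -1.35, SE 0.30, adjusted p = 0.0319; edgeR), and the groups did not overlap. In bulk tissue, fewer cells of a type and less RNA per cell cannot be told apart. CTG tRF_other was 1310, 1281 and 1524 CPM in WT and 1094, 339 and 638 CPM in KO (log2 fold change -0.99, SE 0.36, adjusted p = 0.248). TTG tRF_5′ was 11.9, 10.001 and 20.9 CPM in WT and 7.51, 2.46 and 6.41 CPM in KO (-1.39, SE 0.44, adjusted p = 0.163). Both sums lay lower in every KO library than in any WT library. The TTG tRF_other call was lost without KO cauda replicate 2 (-1.12, adjusted p = 0.206) or without WT replicate 1, 2 or 3 (-1.31, -1.42 and -1.26).

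No single entry of 29 was called in KO cauda tissue by edgeR, where 0.86% of all RNAs were called and 0.831% lower. DESeq2 called 5 entries, all lower. With the replicate number as a block, 8 entries were lower and TTG tRF_5′ passed (-1.42, adjusted p = 0.0174). At an unadjusted p under 0.05, 12 entries were lower and none higher, beside 15.1% of all RNAs in either direction and 7.37% lower. In 12 entries all KO libraries lay below all WT libraries and in none above, beside 10.1% and 6.91% of all RNAs. Median log2 fold changes were -0.93 for tRF_5′, -0.44 for tRF_3′ and -0.86 for tRF_other, against 0.12 over all RNAs. Without KO cauda replicate 1, 4 entries were called. The share of all RNAs called with DESeq2, with the block or without that library is not given here. The counts of entries under these settings therefore have no background beside them.

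Among other tRNAs of the cauda tissue a few sums were called. Of 144 sums of other anticodons 8 fell and none rose, all tRF_other, where 1.46% of all sums and RNAs were called. In the list of 10 anticodons 5 of 30 sums fell. Shares of fragment types within tRNA-Gln overlapped between genotypes for both anticodons. The 2 marker lists that did not overlap were lower in KO, leukocytes (2 of 4 markers detected, 0.0626 to 0.233 CPM from 2 to 37 counts in WT against 0.0332 to 0.0594 CPM from 1 to 4 counts in KO) and Mir204 with Mir211 (0.0247 to 0.0504 CPM from 1 to 8 counts against 0.0 to 0.0149 CPM from 0 to 1 counts, with 1 of 2 detected), so that both rest on counts near the floor of 3. Their part in the tRNA-Gln values was not tested.

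In caput and corpus tissue no entry was called, where 0.0% of all RNAs were called in each. In the caput 0 entries had an unadjusted p under 0.05 (0.975% of all RNAs), and in the corpus 1 entry did, higher in KO (8.0% of all RNAs). DESeq2 called none in either segment. CTG tRF_other was 1208, 1298 and 1151 CPM in WT caput and 1284, 2158 and 1626 CPM in KO caput, with a log2 fold change of 0.47 and overlapping libraries (0.49 without WT caput replicate 3). In the corpus it was 879, 1416 and 811 CPM in WT against 1630 and 1605 CPM in KO (log2 fold change 0.64, adjusted p = 0.668; edgeR). KO corpus tissue was the group with 2 libraries, and both lay above all WT corpus libraries for CTG tRF_other. By entry, all 5 CTG tRF_other entries lay above and 3 entries below (Gln-CTG-4 and Gln-CTG-5 tRF_5′ and Gln-TTG-4 tRF_other), beside 11.8% and 15.2% of all RNAs. Of the 7 marker lists 4 were lower in KO corpus tissue without overlap. The Mir200 family, all 5 detected, was 13.5 to 27.1 CPM in WT against 8.16 to 9.99 in KO, and smooth muscle markers, 2 of 3 detected, 36.4 to 83.8 against 18.6 to 28.2 CPM. Endothelial Mir126a and the erythrocyte list, the latter at 1 count in each KO library, were the other two. Their part in the tRNA-Gln values was not tested. Interactions between segments in tissue were not called for any entry, where 0.0% of all RNAs were.

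In sperm, 5′ fragments of tRNA-Gln were lower in KO on average, and no sum or entry passed the test. CTG tRF_5′ was 178, 103, 199 and 12.6 CPM in WT and 4.91, 23.7, 17.3 and 12.5 CPM in KO. In counts these were 9902, 251, 279 and 41 against 144, 1174, 1180 and 45. WT replicate 4 lay among the KO libraries, and the other 3 WT libraries lay above them all. The log2 fold change was -3.07 (SE 0.75, adjusted p = 0.190) by edgeR and -3.11 by DESeq2 (adjusted p = 0.00367). Without WT replicate 4 the edgeR value was -3.40 and passed (adjusted p = 0.00219). TTG tRF_5′ was 45.6, 16.0, 39.2 and 11.6 CPM in WT and 2.39, 12.6, 9.82 and 7.51 CPM in KO, with a log2 fold change of -1.80 (SE 0.59, adjusted p = 0.257) that passed without WT replicate 4 (-2.02, adjusted p = 0.0413).

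Depth differed by genotype among the sperm libraries. WT totals were 52607365, 2899859, 1134840 and 3025269 counts and KO totals 44325673, 42764979, 62128314 and 3618739, so that 3 of 4 WT libraries and 1 of 4 KO libraries were shallow. The deep WT library held 178 CPM of CTG tRF_5′, against 4.91 to 23.7 CPM in the 3 deep KO libraries. The shallow WT libraries held 12.6 to 199 CPM and the shallow KO library 12.5 CPM. With depth class (above or below 10000000 total counts) as a term in the edgeR fit, chosen after the data were seen, the log2 fold changes were -3.30 for CTG tRF_5′ and -2.03 for TTG tRF_5′ (adjusted p = 0.578 each). No entry was then called, where 0.0% of all RNAs were. At an unadjusted p under 0.05, 11 of 27 tested entries were lower by edgeR. The share of all RNAs at that level in this fit is not given here. No marker list separated the genotypes in sperm.

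By isodecoder, none of 27 sperm entries was called by edgeR, where 0.0% of all RNAs were, and 4 were by DESeq2. Without WT replicate 4, 8 entries were lower. The share of all RNAs called by DESeq2 or without that library is not given here. The counts of 4 and 8 entries therefore have no background beside them. At an unadjusted p under 0.05, 9 entries were lower and none higher, beside 17.5% of all RNAs in either direction and 9.48% lower. In 3 entries, Gln-TTG-1, Gln-TTG-2 and Gln-TTG-5 tRF_5′, all KO libraries lay below all WT libraries and in none above, beside 1.25% and 8.15% of all RNAs. Of the 9, 7 were tRF_5′, 1 was Gln-CTG-5 tRF_3′ and 1 was Gln-CTG-1 tRF_other. Gln-CTG-2 and Gln-CTG-3 tRF_5′ held equal counts, and Gln-TTG-1 and Gln-TTG-2 tRF_5′ nearly equal ones. The entries counted here are thus not separate measurements. Gln-CTG-2 tRF_5′ stood at 50.7, 32.4, 47.6 and 4.34 CPM in WT and 1.35, 7.93, 5.69 and 5.15 CPM in KO. Gln-CTG-5 tRF_3′ stood at 6.07, 12.9, 13.7 and 0.361 CPM in WT and 0.532, 1.28, 1.17 and 1.37 CPM in KO. In both, WT replicate 4 was within or below the KO range.

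The other sperm sums were also lower in KO by mean, with log2 fold changes from -1.05 for CTG tRF_3′ to -0.73, and did not pass. CTG tRF_3′ passed without WT replicate 4 (-1.35, adjusted p = 0.0451; edgeR). CTG tRF_other was 1261, 1034, 961 and 404 CPM in WT and 390, 874, 651 and 287 CPM in KO, with a log2 fold change of -0.73 (adjusted p = 0.490; edgeR). CTG tRF_5′ made up 7.05% ± 3.59 of CTG fragment counts in WT and 1.86% ± 0.82 in KO (SD, n = 4; exact permutation test, two-sided, p = 0.0571). The tRF_other share was 64.2% against 67.4%. Of 142 sums of other anticodons none was called, and 53 had an unadjusted p under 0.05, all lower, among them 23 of 46 tRF_5′ sums. The share of all sums and RNAs at that level in sperm is not given here, so the count of 53 has no background beside it.

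Along the WT duct, internal TTG fragments of fluid were higher beyond the caput. TTG tRF_other was 1828, 1243 and 1123 CPM in WT caput fluid, 10081, 3062 and 4989 CPM in WT corpus fluid and 3534, 2936 and 2785 CPM in WT cauda fluid. Libraries of the caput lay below all those of the corpus and the cauda. TTG tRF_other rose by a log2 fold change of 2.11 from caput to corpus (SE 0.41, adjusted p = 0.00302) and of 1.14 from caput to cauda (SE 0.40, adjusted p = 0.0431; edgeR). CTG tRF_other passed in neither contrast, with 1.01 from caput to corpus (adjusted p = 0.110). The TTG part of tRNA-Gln tRF_other counts was 17.96% ± 6.84 in WT caput fluid, 30.9% ± 1.25 in corpus fluid and 31.8% ± 1.23 in cauda fluid (SD, n = 3), without overlap of either with the caput.

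By isodecoder the counts called between segments were near the shares over all RNAs, and the 2 WT contrasts share the caput libraries. From caput to corpus fluid 3 of 28 entries fell and 3 rose, where 17.7% of all RNAs were called, 9.54% lower and 8.21% higher. From caput to cauda fluid 3 fell and 3 rose, where 25.1% were called, 15.4% lower and 9.69% higher. The same entries rose in both contrasts, Gln-CTG-4, Gln-TTG-1 and Gln-TTG-3 tRF_other. Gln-CTG-4 and Gln-CTG-5 tRF_5′ fell in both, with Gln-CTG-2 tRF_3′ (-1.39) falling to the corpus and Gln-CTG-1 tRF_other (-1.28) to the cauda. The caput to cauda count was 1 without WT caput fluid replicate 3 and 3 without WT cauda fluid replicate 1.

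Gln-CTG-4 tRF_5′ set the caput apart. It was 154, 169 and 157 CPM in WT caput fluid, 27.2, 18.8 and 29.8 CPM in WT corpus fluid and 3.13, 22.8 and 15.1 CPM in WT cauda fluid. KO libraries held 135, 102 and 182 CPM in the caput, 35.3, 25.4 and 36.9 CPM in the corpus and 20.4, 22.6 and 23.6 CPM in the cauda. Caput libraries of either genotype lay above all corpus and cauda libraries. It fell by 2.66 on the log2 scale from WT caput to corpus (SE 0.50, adjusted p = 0.00175), by 3.54 from WT caput to cauda (SE 0.52, adjusted p = 8.09e-05) and by 2.65 from KO caput to cauda (SE 0.50, adjusted p = 0.00162; edgeR). The sum of CTG tRF_5′ passed in none of these contrasts.

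In KO fluid the rise of internal fragments from caput to cauda took in more entries. CTG tRF_other rose by a log2 fold change of 1.26 (SE 0.42, adjusted p = 0.0353) and TTG tRF_other by 2.36 (SE 0.42, adjusted p = 0.00282; edgeR). Of 28 entries 6 rose and 2 fell, where 26% of all RNAs were called, 11.5% higher and 14.5% lower. Gln-CTG-4 tRF_other went from 216, 128 and 183 CPM in KO caput to 1296, 1550 and 697 CPM in KO cauda fluid (2.75, SE 0.42, adjusted p = 0.000277). Whether this exceeds the WT change is the cauda minus caput interaction given above, which was not called. The CTG call was lost without KO caput replicate 2 or 3 or any 1 of the KO cauda replicates, and the count of 8 entries was 4 without KO caput replicate 1, 2 or 3 or KO cauda replicate 1 or 2.

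Other tRNAs and marker lists changed between the fluids too. From WT caput to corpus, 25 of 143 sums of other anticodons rose and 16 fell, and 20 of their 49 tRF_other sums rose, where 13.7% of all sums and RNAs were called and 7.78% higher. Between WT caput and cauda 14 rose and 26 fell (23.4% called, 7.53% higher), and in KO 31 rose and 22 fell (24% called, 11.6% higher). In WT cauda fluid Mir204 was lower than in caput fluid without overlap (2.03 to 6.47 against 28.7 to 44.6 CPM). The germ cell list was higher, with 5 of 7 markers detected at 10.8 to 29.95 against 1.97 to 3.29 CPM, as were the leukocyte and erythrocyte lists. Between WT caput and corpus fluid the Mir200 family (97.0 to 168 against 28.3 to 76.5 CPM) and Mir204 (28.7 to 44.6 against 5.33 to 9.02) were lower without overlap, and the germ cell list and leukocytes (5.20 to 9.24 against 12.9 to 18.3 CPM) were higher. From KO caput to cauda fluid the Mir200 family and Mir204 were lower, and smooth muscle (119 to 151 against 193 to 433 CPM) and germ cell markers higher. Their part in the tRNA-Gln values was not tested.

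Along the duct in tissue, 3′ fragments were lower in the cauda. In WT mice CTG tRF_3′ was 3237, 2108 and 2013 CPM in the caput, 1909, 1996 and 1157 CPM in the corpus and 1642, 984 and 1255 CPM in the cauda. TTG tRF_3′ was 2185, 1287 and 1419 CPM in the caput and 1011, 545 and 709 CPM in the cauda. Caput and cauda did not overlap for either. The sums had log2 fold changes of -0.92 (SE 0.36, adjusted p = 0.0775) and -1.11 (SE 0.40, adjusted p = 0.0521), and TTG passed with the replicate number as a block (-1.11, adjusted p = 0.00858). Without WT caput replicate 3 the values were -1.09 and -1.25, and TTG passed. Of the marker lists, smooth muscle (2 of 3 detected) was higher in WT cauda tissue without overlap, at 69.7 to 231 against 30.04 to 51.9 CPM in the caput, and Mir204 with Mir211 lower. Their part was not tested.

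By isodecoder, 7 of 29 entries fell from WT caput to cauda tissue and none rose, where 23% of all RNAs were called and 7.28% lower. All 7 were among the 9 tested tRF_3′ entries, which largely share reads, with log2 fold changes from -1.17 to -1.21. Gln-CTG-3 tRF_3′ went from 510, 310 and 345 CPM to 220, 124 and 172 CPM (-1.18, SE 0.35, adjusted p = 0.0214; edgeR). The count was 7 without WT caput replicate 3, and 0 without WT caput replicate 1 or WT cauda replicate 2 or 3. From caput to corpus none of 29 was called by edgeR or DESeq2, where 11.8% of all RNAs were, and 2 had an unadjusted p under 0.05 beside 23.8% of all RNAs. Without WT caput replicate 3 none was called either. The tRF_other share was 33.3% ± 5.74 in the caput and 50.4% ± 5.95 in the cauda for CTG, and 12.1% ± 2.09 and 19.96% ± 3.81 for TTG (SD, n = 3, no overlap; exact permutation test, two-sided, p = 0.1, the smallest possible). The differences of 17.1 and 7.91 percentage points were 18.1 and 7.45 without WT caput replicate 3.

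In KO tissue most tRF_3′ and tRF_other entries and some tRF_5′ entries were lower in the cauda than in the caput. Of 29 entries 21 fell and none rose, where 25.7% of all RNAs were called and 8.6% lower. In 23 entries all cauda libraries lay below all caput libraries and in none above, beside 19.6% and 19.2% of all RNAs. The called entries were 3 of 10 tested tRF_5′, 9 of 9 tRF_3′ and 9 of 10 tRF_other entries. Gln-TTG-3 tRF_other went from 63.0, 103 and 87.1 CPM to 39.8, 27.1 and 32.8 CPM (-1.34, SE 0.26, adjusted p = 0.00108). All sums but CTG tRF_5′ fell, from CTG tRF_other (-1.29) and TTG tRF_5′ (-1.42) to TTG tRF_other (-1.52) and TTG tRF_3′ (-1.64) on the log2 scale (edgeR, adjusted p from 0.00129 to 0.0241). Without KO cauda replicate 2, which held the lowest TTG tRF_5′ and tRF_other of the group, the count was 3 and CTG tRF_other (-0.96) and TTG tRF_5′ (-1.07) did not pass. TTG tRF_5′ also did not pass without KO caput replicate 3 (-1.21).

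Beside this decline, 69 of 144 sums of other anticodons fell from KO caput to cauda tissue, where 26% of all sums and RNAs were called and 8.64% lower, and 12 of the 30 sums in the list of 10 anticodons did. In WT mice 1 sum of other anticodons fell and 2 rose. The split over all RNAs in KO was 300 lower and 598 higher, and 766 lower and 464 higher when scaled on RNAs other than tRNA and rRNA features. Epithelial markers of the Mir200 family were 12.2 to 33.5 CPM in KO caput and 4.25 to 8.20 CPM in KO cauda tissue, with all 5 detected in each. In all, 4 of the 7 marker lists were lower and smooth muscle was higher without overlap, and their part was not tested. That the decline differed from that in WT was not shown, since no interaction was called.

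Full-length tRNA-Gln was counted beside the fragments. Group means in the tissue table were 3.45 to 5.12 CPM for CTG and 0.247 to 0.392 CPM for TTG, and those of fluid were 0.961 to 34.8 and 1.58 to 29.0 CPM. In caput fluid CTG full-length counts were 60, 25 and 12 in WT and 675, 224 and 147 in KO, without overlap, with a log2 fold change of 2.87 (SE 1.13, adjusted p = 0.366; edgeR). TTG full-length counts there were 114, 56 and 64 against 402, 281 and 200. In corpus fluid the CTG counts were 1, 10 and 8 in WT against 7, 14 and 16 in the shallower KO libraries, or 0.191 to 1.75 against 2.74 to 6.38 CPM without overlap (log2 fold change 2.13, SE 1.31, adjusted p = 0.263; edgeR). TTG counts were 6, 15 and 10 against 16, 21 and 29, or 1.14 to 2.18 against 5.25 to 11.6 CPM without overlap (2.28, SE 1.07, adjusted p = 0.140; edgeR). Sperm libraries held 0 to 6 full-length counts, so that no difference was detectable at this depth.

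Levels of the 2 anticodons ran in parallel to a degree that differed by fragment type and sample type. Across the libraries of a table, log2 CPM of CTG and TTG tRF_3′ had a Pearson r of 0.996 in tissue (n = 17), 0.970 in fluid (n = 18) and 0.977 in sperm (n = 8). For tRF_other the values were 0.875, 0.872 and 0.991, and for tRF_5′ 0.500, 0.840 and 0.929. Gln-TTG-1 tRF_3′ held 99.4 to 100.3% of Gln-CTG-3 counts in tissue libraries and 101 to 124% in fluid libraries. No pair of fluid tRF_3′ entries joined the anticodons within 10% in every library, a cut that does not exclude shared reads. In sperm 8 pairs of tRF_other entries did. The part of shared reads in these values was not tested. In fluid tRF_other and tRF_3′ were not alike, with r of -0.16 for CTG and -0.20 for TTG. These are descriptions over libraries that share scaling, depth and, for the paired anticodons, reads.

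The sums of other amino acids most like each tRNA-Gln sum were named by the highest r over the same libraries. In fluid TTG tRF_other was nearest to Asn-GTT tRF_other (0.990), Trp-CCA (0.969) and Val-TAC (0.962), and CTG tRF_other to Arg-ACG tRF_other (0.927). CTG tRF_3′ in fluid was nearest to Ile-TAT tRF_3′ (0.963) and CTG tRF_5′ to the initiator iMet-CAT tRF_5′ (0.929). In tissue TTG tRF_other was nearest to Leu-TAA tRF_other (0.958), and in sperm CTG tRF_5′ to Trp-CCA tRF_5′ (0.994) and CTG tRF_3′ to Pro-AGG tRF_3′ (0.989). The nearest partner was of the same fragment type for all 6 sums in fluid, for 4 in sperm and for 1 in tissue.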

How the data were processed

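Small RNA reads of 17 tissue, 18 fluid and 8 sperm libraries had been trimmed with cutadapt (UMI-tools is also listed in the submitters' processing notes), aligned with bowtie2 to mm10 and mature tRNAs and counted per feature with a modified tRAX by the authors; the deposited values were raw read counts. Reads matching several features equally well were counted on each. The study's methods restrict tRNA counts to anticodon-specific reads, yet entries of both anticodons held near-identical counts.

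Libraries were grouped by their titles. edgeR 4.0.16 (R 4.3.3) fitted quasi-likelihood models to all groups of a table after filterByExpr (minimum count 10, minimum total 15) and TMM, once to entries and once to sums by anticodon and type, which were scaled separately. Called means a Benjamini-Hochberg adjusted p under 0.05 over all features and an absolute log2 fold change above 1. Shares were compared by exact permutation tests (checked against scipy 1.17.1), and 7 lists of marker miRNAs as CPM of total counts. Alternatives were DESeq2 1.42.0, other scalings, no filter, the compared groups alone, the most counted isodecoder, a replicate block, single libraries left out and, added after the data were seen, a depth term in sperm. Scripts were tested on simulated data.

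Members and lists were chosen with earlier results of these data known. Named entries were, by rule, the isodecoder with the highest mean of each anticodon and type and the called entry with the smallest p in each direction of a comparison. The entries singled out by ratio, the lowest entries, those named to complete a count of 5 or fewer and Gln-CTG-5 tRF_3′ in sperm were chosen after their values were seen. Same-numbered libraries deviated together, with every r over 3 pairs above 0.1, for KO against WT cauda tissue (0.272 to 0.596), WT cauda against caput tissue (0.306 to 0.633), WT corpus against caput tissue (0.312 to 0.555) and KO cauda against caput tissue (0.175 to 0.602), and in no other comparison. This pairing by replicate number rests on the titles and these correlations; what the numbers mean is not given in the sources used here.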

Additional observations from a re-analysis of the deposited data

Results flagged for a closer look

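The KO effect on internal fragments differed between corpus and cauda fluid by the test of the interaction itself: -2.09 for CTG tRF_other, -2.18 for TTG tRF_other, and -1.93, -1.80 and -1.80 for the entries Gln-CTG-4, Gln-TTG-1 and Gln-TTG-3 tRF_other. The calls of the sums were fragile. Of 12 fits that left out 1 library, the CTG call was lost in 11 and the TTG call in 7. In KO cauda sperm, the lowest library had a TTG part of tRNA-Gln tRF_other counts of 32.1%, far from the other 3 libraries for the range of the group. In this way 32 sets of group values were examined, and chance marks about 1 in 20. These sets draw on the same libraries and are not independent. Antisense counts, which lie outside the fragments compared here and gave no call in the fluid comparisons where they passed the filter, were above 0 in all sample types: over all libraries 46 for CTG and 19 for TTG in tissue, 141 and 112 in fluid, and 56 and 55 in sperm, with at most 22 in any 1 library.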

How the results depend on the processing

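For the counts of entries called, the sums with an unadjusted p under 0.05 and the shares without overlap, 917 recomputed values kept their direction and side of the threshold (counts within 1.5 times), 32 newly passed or grew, 62 no longer passed or shrank and 0 reversed. For the shares, 44 of the 87 whose groups overlapped changed sign somewhere, and none of the 43 without overlap did. Another scaling moved the median log2 fold change over all sums by -0.56 (KO caput to cauda tissue, library size only) to 0.47 (WT caput to cauda fluid, scaled on RNAs other than tRNA and rRNA features), with -0.49 for KO against WT corpus fluid under the latter, and the KO corpus fluid tRF_other calls held under each scaling (left-out libraries -2.58 to -1.57 for CTG and -2.59 to -1.67 for TTG; count of entries 6 to 9). No direction reversed among the 33 sums with an unadjusted p under 0.05; of the 81 other sums 48 changed sign somewhere and 2 passed somewhere, CTG tRF_3′ in sperm without WT replicate 4 (-1.35) and from KO caput to cauda fluid without KO cauda replicate 3 (-1.44).

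Scaled on RNAs other than tRNA and rRNA features, the split of all RNAs called moved from 254 lower and 549 higher to 723 and 466 from WT caput to cauda tissue, from 98 and 314 to 181 and 242 to corpus tissue, from 312 and 196 to 217 and 259 from WT caput to cauda fluid, from 193 and 166 to 84 and 242 to corpus fluid (87 and 171 by library size only), and from 293 and 232 to 225 and 334 from KO caput to cauda fluid; library size only gave 641 and 391 from KO caput to cauda tissue.

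The interaction of corpus and cauda fluid no longer passed for CTG tRF_other with DESeq2 size factors (-1.85), library size only (-1.85), the most counted isodecoder (-1.74) or no filter (-2.10), and for TTG with library size only (-1.96), the most counted isodecoder (-1.89) or no filter (-2.20); with single libraries left out they were -2.30 to -1.30 and -2.42 to -1.46, the weakest without WT corpus fluid replicate 1. KO cauda tissue TTG tRF_other (-1.35) no longer passed with DESeq2 size factors (-1.25), library size only (-1.61), the most counted isodecoder (-1.17), no filter (-1.17) or the 2 groups alone (-1.12), and was -1.61 to -1.12 with libraries left out; TTG tRF_5′ passed with the replicate block (-1.42; left out -1.68 to -0.98). The count of 0 entries there became 5 with DESeq2, 8 with the replicate block, 1 as sums and 0 to 4 with libraries left out (4 without KO cauda tissue replicate 1).

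From KO caput to cauda fluid, CTG tRF_other no longer passed with the most counted isodecoder (1.18; left out 1.04 to 1.46), and the count of 8 became 5 with no filter and 4 to 6 with libraries left out. From KO caput to cauda tissue, CTG tRF_other no longer passed in the 2 groups alone (-1.26; left out -1.79 to -0.96), nor did TTG tRF_5′ there (-1.39) or with no filter (-1.27; left out -1.72 to -1.07), and the count of 21 became 10 in the 2 groups alone and 3 to 22 with libraries left out (3 without KO cauda tissue replicate 2). From WT caput to cauda fluid, TTG tRF_other no longer passed with no filter (1.13), and the count of 6 was 1 to 5 (1 without WT caput fluid replicate 3).

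From WT caput to cauda tissue, CTG tRF_3′ passed with DESeq2 (-1.18), its size factors (-1.18), scaling on RNAs other than tRNA and rRNA features (-1.19), library size only (-1.41) and no filter (-1.01); left out, it was -1.13 to -0.67. TTG tRF_3′ passed with DESeq2 (-1.36), its size factors (-1.36), the same scaling (-1.38), library size only (-1.60), the most counted isodecoder (-1.20), no filter (-1.20), the replicate block (-1.11) and the 2 groups alone (-1.25); left out, it was -1.38 to -0.84. The count of 7 became 12 with that scaling, 0 as sums, 0 in the 2 groups alone and 0 to 7 with libraries left out. From WT caput to corpus fluid, CTG tRF_other passed with that scaling (1.39; left out 0.37 to 1.48, past without WT corpus fluid replicate 2), CTG tRF_3′ in the 2 groups alone (-1.05; left out -1.36 to -0.77), and the count of 6 became 12 in the 2 groups alone. From WT caput to corpus tissue the count of 0 became 1 with that scaling. In sperm CTG tRF_5′ passed with DESeq2 (-3.11; left out -3.44 to -2.76), TTG tRF_5′ was -2.13 to -1.48, and the count of 0 became 4 with DESeq2 and 8 without WT cauda sperm replicate 4 (0 to 8). The replicate block changed the call of no other sum and moved no other count of entries by over 1.5 times, though counts went from 9 to 8 in KO corpus fluid, from 21 to 23 from KO caput to cauda tissue, from 6 to 7 from WT caput to corpus fluid and from 6 to 5 from WT caput to cauda fluid. A depth term in sperm, added after the data were seen, changed no call. The cause of these changes was not tested. Apart from the splits over all RNAs printed above, counts of entries under an alternative stand without the share of all RNAs called under it. They therefore do not show whether tRNA-Gln changed more than other RNAs. Depth limits sperm most, with as few as 41 CTG tRF_5′ counts in a library.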
